A study of Homo sapiens with 12 samples.

Results

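The miR-125 strands hsa-miR-125a-5p, hsa-miR-125a-3p, hsa-miR-125b-5p and hsa-miR-125b-1-3p were followed across 6 DICER groups in the human colorectal carcinoma line HCT116. The 4 entries were taken by exact name from count tables of 1346 miRNA entries, and all 4 were found and passed the low-count filter, which left 374 entries. Small RNA was sequenced by AQ-seq, a method built to reduce ligation bias. The groups are named by the genotype of the rescue, with 2 libraries each: wild-type DICER (WT), R821E, R821A, E5, A5 and ΔPAZ helix. R821E and R821A carry glutamate or alanine in place of the same arginine, and ΔPAZ helix is by its name a deletion in the PAZ domain. The labels do not state what E5 and A5 change, how endogenous DICER was removed or whether each line is 1 clone. All groups share the cell line and the rescue design. The labels do not say whether partner libraries came from separate cultures, so p-values reflect only how far partner libraries differ, which may be a technical matter.

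DICER cuts the loop off a precursor hairpin and leaves a duplex of a 5p and a 3p strand, one of which is usually kept by an Argonaute protein. The kept strand finds targets mainly through its seed, bases 2 to 8. miR-125 is the vertebrate counterpart of lin-4 of Caenorhabditis elegans and its 5p strand represses LIN28A, whose protein blocks let-7 maturation. Its hairpins lie beside hairpins of the miR-99/100 and let-7 families, an arrangement kept across animals.

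The mature strands are shown to make clear which entries can be told apart and which share a seed. They are RefSeq sequences on GRCh38.p14, written 5′ to 3′, with the seed in capitals, and all 4 members were matched by name.
miR-125a-5p: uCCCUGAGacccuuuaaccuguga
miR-125b-5p: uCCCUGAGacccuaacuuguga
miR-125a-3p: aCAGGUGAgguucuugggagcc
miR-125b-1-3p: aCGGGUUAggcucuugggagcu
Both 5p strands carry the seed CCCUGAG, share their first 13 bases and have 21 identical columns of 24 when aligned. Among the 1179 entries of the tables with a RefSeq sequence, no other entry has this seed. The 3p strands have different seeds and 18 identical columns of 22. The sources used here do not give how reads that fit both 5p strands were counted.

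The hairpins show where the strands come from, and the mature strands are in capitals.
MIR125A: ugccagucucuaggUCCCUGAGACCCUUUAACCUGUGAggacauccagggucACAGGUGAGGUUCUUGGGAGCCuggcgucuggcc
MIR125B1: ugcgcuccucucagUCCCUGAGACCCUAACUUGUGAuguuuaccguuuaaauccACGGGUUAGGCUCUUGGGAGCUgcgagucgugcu
MIR125A lies at chr19:51693254-51693339 on the plus strand, inside an intron of SPACA6 and over an exon of SPACA6P-AS on the other strand (GENCODE 29). Its neighbours on the same strand are MIR99B, 572 bases away, and MIRLET7E, 389 bases away. MIR125B1 lies at chr11:122099757-122099844 on the minus strand in an intron of MIR100HG, with MIRLET7A2 and MIR100 at 46677 and 52384 bases. The strand miR-125b-5p is also encoded by MIR125B2 in an intron of MIR99AHG on chromosome 21, so its counts pool 2 loci, whereas miR-125b-1-3p comes from MIR125B1 alone. From the first base of the 5p strand to the last base of the 3p strand, MIR125A spans 60 bases and MIR125B1 62. Their neighbours MIR99B, MIR100 and MIRLET7E span 60, 57 and 67, and the median of 807 human hairpins with both strands in the table is 60.

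The libraries held 144067 to 255296 miRNA counts, at which 3 counts correspond to 11.8 to 20.8 CPM (counts scaled to a library total of 1000000). Counts were put on either of 2 scales. On the trimmed-mean (TMM) scale, given as CPM, a strand is set against the bulk of other miRNAs, and on the spike-in scale against the sum of 30 added spike-in entries. The 11.8 to 20.8 CPM of 3 counts is before TMM scaling, which raises CPM in R821E (factors 0.714 and 0.804). The 2 scales part in every mutant and farthest in R821E: the 10 mutant libraries held 13.4 to 21.5 miRNA counts per spike-in count, all below the 22.4 and 25.9 of WT. The median log2 fold change against WT over all 374 entries was -0.10 by TMM and -1.38 by spike-ins in R821E. In E5, A5, ΔPAZ helix and R821A it was -0.56, -0.46, -0.45 and -0.35 by spike-ins, and by TMM it lay between -0.018 and 0.033. Of the 6 colon epithelial markers looked up, miR-31-5p was high (26051 to 46707 CPM). miR-200b-3p had 635 to 1311 CPM, a range that overlaps that of the neuronal marker miR-9-5p (489 to 1216 CPM). The other 4 were low, with 1 to 15 counts for miR-200c-3p, 2 to 10 for miR-141-3p, 5 to 46 for miR-194-5p and 19 to 41 for miR-192-5p. Markers of liver (miR-122-5p), neurons (miR-124-3p), muscle (miR-133a-3p) and myeloid cells (miR-223-3p) had 0 to 2 counts per library. Of the other markers of non-epithelial cells, miR-9-5p, miR-142-3p, miR-451a, miR-145-5p and miR-126-3p lay between 91.6 and 1216 CPM. The rest were low, with 3 to 15 counts for miR-142-5p, 0 to 3 for miR-150-5p, 0 to 11 for miR-144-3p and 1 to 15 for miR-143-3p. The muscle markers miR-1-3p and miR-206 had no entry. The part of these markers in the results was not tested. WT partners differed most among replicates, with a chi-square per degree of freedom of 25.6 against 3.83 to 14.6 elsewhere.

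The 5p strands of miR-125 exceeded the 3p strands in every library. In WT, miR-125b-5p ranked 83 and miR-125a-5p 88 by mean CPM among the 1346 entries, while miR-125a-3p ranked 233 and miR-125b-1-3p 271. Counts per library ran from 79 to 334 for miR-125a-5p, 129 to 512 for miR-125b-5p, 4 to 35 for miR-125a-3p and 5 to 29 for miR-125b-1-3p. The 3p values therefore carry wide counting error. In R821E replicate 2 the 4 counts of miR-125a-3p correspond to 7.57 to 71.1 CPM of the total before TMM scaling (95% exact Clopper-Pearson interval, counting error only).

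hsa-miR-125a-5p, the main strand of the chromosome 19 hairpin, stood in replicates 1 and 2 at 732 and 1106 CPM (WT), 1153 and 1177 (E5), 658 and 1106 (A5), 940 and 654 (ΔPAZ helix), 849 and 682 (R821E) and 1171 and 753 (R821A). The group ranges overlapped for every pair of neighbours in the order of means, from E5 (1165 CPM) to R821E (766 CPM). Groups farther apart in that order could separate. Both E5 libraries were above both WT libraries, a difference that did not pass the test given below. On the spike-in scale the picture was different at one end. Both R821E libraries, with 9.29 and 7.33 counts per 1000 spike-in counts, were below all 10 other libraries, which had 12.2 to 30.4.

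hsa-miR-125b-5p, the main strand of the chromosome 11 and 21 hairpins, stood at 1141 and 851 CPM (WT), 944 and 1803 (E5), 643 and 1519 (A5), 967 and 758 (ΔPAZ helix), 1167 and 1322 (R821E) and 1794 and 1272 (R821A). Partner libraries of E5 and A5 lay farther apart than the highest and lowest group means did. Every neighbouring pair in the order of means overlapped, from R821A (1533 CPM) to ΔPAZ helix (862 CPM). Farther apart in that order, both R821E and both R821A libraries were above both WT libraries, without passing the test given below. In WT the partners went opposite ways for the 2 paralogues, with replicate 2 higher for miR-125a-5p and lower for miR-125b-5p. Per 1000 spike-in counts, R821E had 12.8 and 14.2 and WT had 29.4 and 23.4, while A5 replicate 1 (12.2) and ΔPAZ helix replicate 2 (14.2) were as low as R821E.

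hsa-miR-125a-3p, the minor strand of its hairpin, had 104 and 122 CPM (WT), 82.8 and 91.8 (E5), 74.8 and 132 (A5), 121 and 36.3 (ΔPAZ helix), 110 and 34.6 (R821E) and 116 and 73.5 (R821A). All neighbouring groups in the order of means overlapped on the TMM scale, while both WT libraries were above both E5 libraries without passing the test given below. On the spike-in scale WT (2.68 and 3.36 per 1000 spike-in counts) was above every mutant library (0.371 to 2.60), as it was for all miRNA counts together per spike-in count.

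hsa-miR-125b-1-3p, the minor strand that reads out MIR125B1 alone, had 86.7 and 72.5 CPM (WT), 77.3 and 41.7 (E5), 44.9 and 86.5 (A5), 90.0 and 57.1 (ΔPAZ helix), 36.7 and 43.2 (R821E) and 77.1 and 133 (R821A). The R821E values rest on 6 and 5 counts. Both were below WT, and R821E replicate 2 lay above E5 replicate 2. On the spike-in scale both R821E libraries (0.401 and 0.464 per 1000 spike-in counts) were below the other 10 (0.727 to 3.02).

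**Figure D1:**
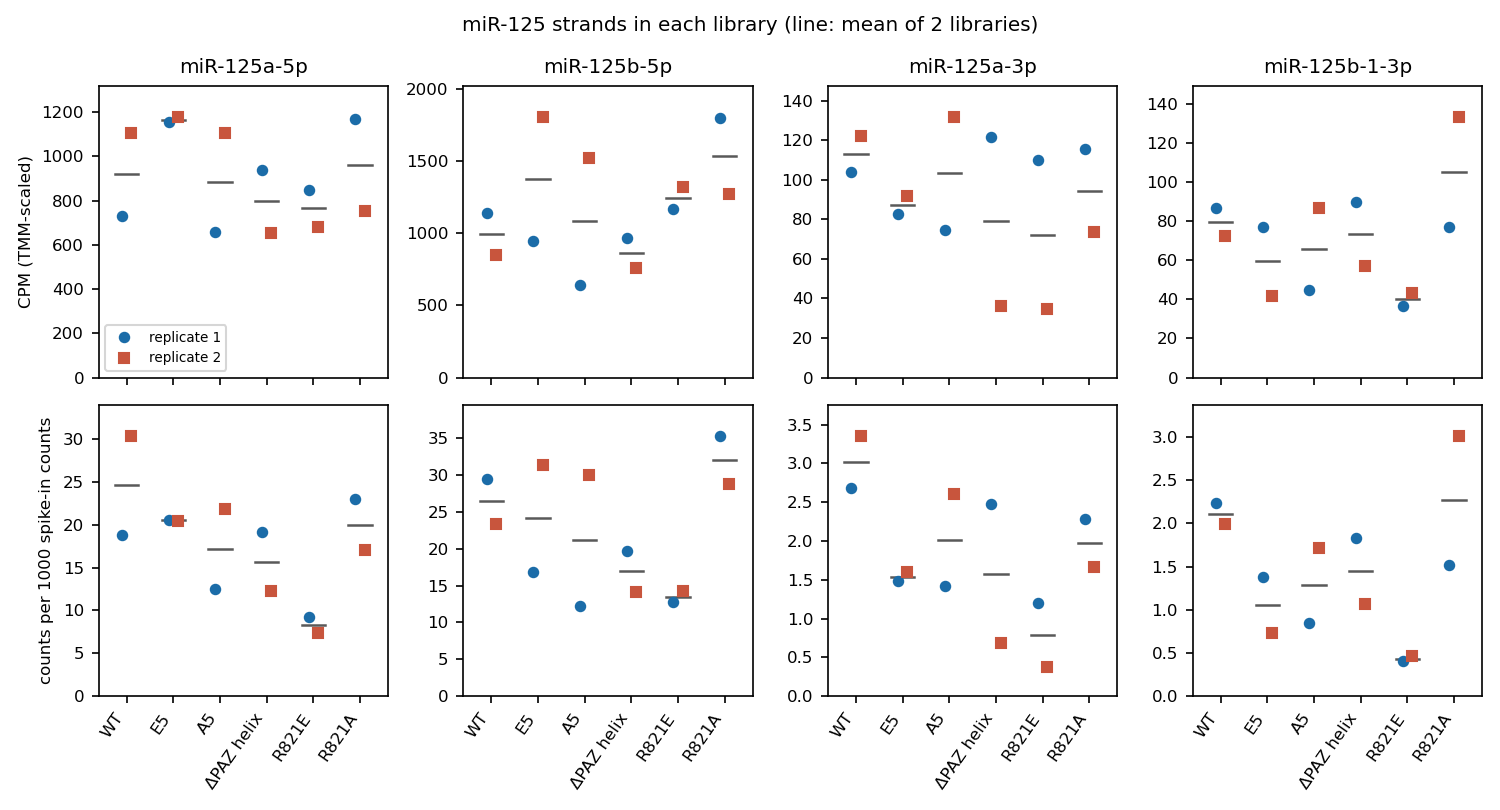
Level of the 4 miR-125 strands in each of 12 libraries, as TMM-scaled CPM (top row) and as counts per 1000 spike-in counts (bottom row); circles and squares are replicates 1 and 2 and lines are means. In the top row R821E replicate 1 is the lowest library for miR-125b-1-3p (36.7) and replicate 2 for miR-125a-3p (34.6), and both R821E libraries are at the bottom for miR-125a-5p (9.29 and 7.33) and miR-125b-1-3p (0.401 and 0.464) in the lower row.

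The comparison with WT asks how each altered DICER changes the output of these hairpins. Relative to the other miRNAs, no miR-125 strand passed the test in any mutant. In R821E 0 of 4 passed, while 47.9% of the 374 entries did (edgeR's quasi-likelihood test at a Benjamini-Hochberg adjusted p under 0.05). None of the 4 was under 0.05 unadjusted either, and DESeq2 also called 0, while scaling by total counts called 2. The log2 fold changes in R821E were -0.26 ± 0.301 (SE) for miR-125a-5p (edgeR adjusted p = 0.517, 95% interval -0.90 to 0.39), 0.32 ± 0.402 for miR-125b-5p (adjusted p = 0.550, -0.58 to 1.21), -0.55 ± 0.567 for miR-125a-3p (adjusted p = 0.437, -1.77 to 0.66) and -1.004 ± 0.566 for miR-125b-1-3p (adjusted p = 0.144, -2.22 to 0.21). The value of miR-125b-5p turned negative with total counts (-0.23) and with spike-ins. For the 5p strands the intervals span -0.90 to 1.21, whereas that of miR-125b-1-3p reaches -2.22.

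Against the spike-ins all 4 strands were lower in R821E than in WT, beside 60.4% of all entries that were lower and 60.7% that passed in either direction. miR-125a-5p fell from 24.7 ± 8.18 (SD, n = 2) to 8.31 ± 1.38 counts per 1000 spike-in counts, a log2 fold change of -1.56 ± 0.313 (SE; edgeR, adjusted p = 7.63e-04). miR-125b-1-3p fell by 2.28 ± 0.60 (edgeR, adjusted p = 0.00285) and miR-125a-3p by 1.84 ± 0.584 (adjusted p = 0.0121). miR-125b-5p was only just called, with -0.97 ± 0.388 (edgeR, adjusted p = 0.0491), and the call was lost without any 1 of the 4 libraries (adjusted p = 0.0864 to 0.209) and with TMM factors of the spike-in entries (adjusted p = 0.0526). The median of the 4 strands was -1.70, beside -1.38 for all 374 entries. Without R821E replicate 2, miR-125a-3p lost its call as well (adjusted p = 0.0938) and 2 of 4 strands remained called. How much spike-in was added per cell is not stated, and in bulk libraries fewer cells and less RNA per cell cannot be told apart.

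In E5 and R821A the 4 strands had values of mixed sign. In E5, 0 of 4 strands passed beside 9.09% of all entries (2.41% higher and 6.68% lower; edgeR, with 0 at unadjusted p under 0.05 and 0 by DESeq2), with 0.34 ± 0.291 for miR-125a-5p, 0.47 ± 0.396 for miR-125b-5p, -0.36 ± 0.512 for miR-125a-3p and -0.46 ± 0.470 for miR-125b-1-3p. In R821A, 0 of 4 passed beside 3.21% (2.94% lower; again 0 unadjusted and 0 by DESeq2). miR-125b-5p had the highest value there, 0.62 ± 0.393, which was above that of 94.1% of entries without passing the test (edgeR adjusted p = 0.647, 95% interval -0.25 to 1.497). The R821A values of the others were 0.07 ± 0.291 for miR-125a-5p, -0.23 ± 0.493 for miR-125a-3p and 0.37 ± 0.421 for miR-125b-1-3p.

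In A5 and ΔPAZ helix, where only 0.267% of entries passed in either, 0 of 4 strands passed (edgeR, 0 unadjusted, 0 by DESeq2). The log2 fold changes ran from -0.24 (miR-125b-1-3p) to 0.13 (miR-125b-5p) in A5 and from -0.48 (miR-125a-3p) to -0.10 (miR-125b-1-3p) in ΔPAZ helix. With spike-ins no strand passed in E5, A5, ΔPAZ helix or R821A, beside 27.3%, 14.7%, 13.1% and 4.28% of entries, with values between -1.04 (miR-125b-1-3p in E5) and 0.28 (miR-125b-5p in R821A). The 5 comparisons share the WT libraries.

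**Figure D2:**
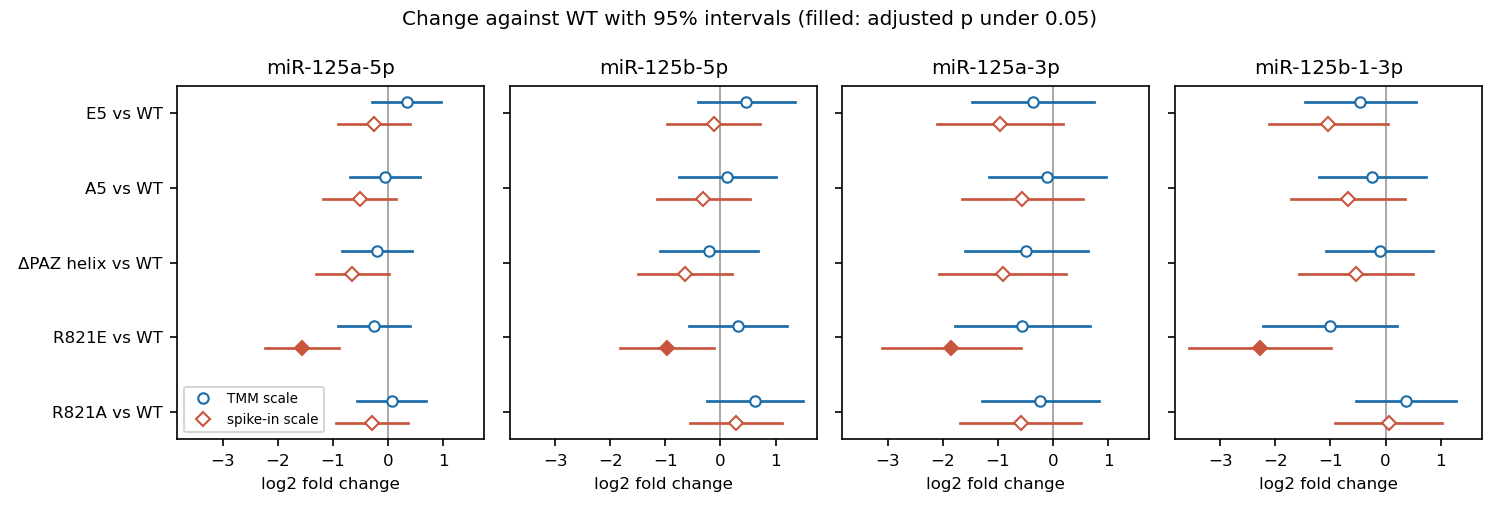
log2 fold change of each miR-125 strand against WT in the 5 mutants, on the TMM scale (circles) and the spike-in scale (diamonds), with 95% intervals and filled symbols where the edgeR adjusted p is under 0.05. The only filled symbols are the spike-in values of R821E, from -0.97 for miR-125b-5p to -2.28 for miR-125b-1-3p.

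The glutamate and alanine versions of the same residue were compared directly. Between R821E and R821A, 0 of 4 strands passed on the TMM scale beside 41.4% of entries (edgeR; DESeq2 also 0). miR-125b-1-3p alone was under 0.05 unadjusted: 51 counts in R821A stood against 11 in R821E, a log2 fold change of -1.38 ± 0.560 (SE; edgeR adjusted p = 0.0523). It passed with upper quartile factors (adjusted p = 0.0363), total counts (0.00984), only the 4 libraries compared (0.0321) and without R821A replicate 1 (0.0498), and not with DESeq2 (0.101), no filter (0.0518) or the replicate block (0.0703). Scaled by spike-ins, 3 of 4 strands were lower in R821E than in R821A beside 48.9% of entries (49.2% in either direction): miR-125b-1-3p (-2.33), miR-125a-5p (-1.27) and miR-125b-5p (-1.25). The call of miR-125b-5p was lost without R821E replicate 1, R821E replicate 2 or R821A replicate 1 (adjusted p = 0.122, 0.0813 and 0.0958).

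Between R821E and E5, 0 of 4 strands passed beside 30.2% of entries (edgeR, 0 unadjusted, 0 by DESeq2). miR-125a-5p had -0.60 ± 0.302 (edgeR adjusted p = 0.154) and passed with no filter (adjusted p = 0.0169), with total counts (0.0154) and with only the 4 libraries compared (0.0445). Scaled by spike-ins it had -1.30 (adjusted p = 0.00528), alone among the 4 beside 36.4% of entries that were lower. That call was lost without R821E replicate 2 (adjusted p = 0.0576). Between E5 and A5, 0 of 4 strands and 0% of entries passed (edgeR, 0 strands unadjusted, 0 by DESeq2), and the strands' values ran from -0.26 (miR-125a-3p) to 0.39 (miR-125a-5p).

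The 2 arms of MIR125A kept a 5p lead in every library. The log2 ratio of miR-125a-5p to miR-125a-3p counts, which needs no scaling, was 2.79 and 3.16 (WT), 3.76 and 3.65 (E5), 3.10 and 3.05 (A5), 2.93 and 4.08 (ΔPAZ helix), 2.91 and 4.14 (R821E) and 3.32 and 3.32 (R821A). Both E5 libraries were above both WT libraries, whereas R821E partners fell on either side of E5. No comparison passed (limma over 73 ratios, of which 69 were arm ratios). The shift against WT was 0.55 ± 0.451 (SE) in R821E (limma adjusted p = 0.326, 95% interval -0.43 to 1.54), where 39.1% of arm ratios moved toward 5p and 14.5% toward 3p, and 0.73 ± 0.451 in E5 (adjusted p = 0.391), where 4.35% moved toward 5p. Without R821E replicate 2, which holds 4 counts of the 3p strand, the R821E value was -0.06.

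For miR-125b the ratio of 5p to miR-125b-1-3p counts mixes loci and fell under the count minimum for testing, so it is given as a description. The 5p strand outnumbered the 3p strand 12.9-fold and 11.5-fold in the WT libraries, 29.5-fold and 27.9-fold in R821E and 9.41-fold to 41.2-fold in the other 8 libraries. R821E lay above both WT libraries, and E5 replicate 2 above R821E.

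The 2 paralogues were compared within libraries by the ratio of miR-125a-5p to miR-125b-5p. The log2 ratio was -0.64 and 0.38 (WT), 0.29 and -0.61 (E5), 0.03 and -0.46 (A5), -0.04 and -0.21 (ΔPAZ helix), -0.46 and -0.95 (R821E) and -0.62 and -0.75 (R821A). The gap between the WT libraries was wider than that between the partners of any mutant, and 0 of the 8 comparisons passed (limma, 0 also at unadjusted p under 0.05). The shift in R821E was -0.57 ± 0.393 (SE; limma adjusted p = 0.236, 95% interval -1.43 to 0.29), and in R821A it was -0.55 ± 0.393 (adjusted p = 0.717). The sum of both strands came to 1872 and 1957 CPM in WT and 2016 and 2004 CPM in R821E. Per 1000 spike-in counts the sum was 48.3 and 53.8 in WT and 22.0 and 21.5 in R821E, the lowest 2 of the 12 libraries, next to 24.7 in A5 replicate 1.

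The strands of the neighbouring hairpins were compared in the same way. Of 13 strands listed for the 3 loci, 9 were tested. In R821E against WT, 1 of 9 was higher and 4 were lower on the TMM scale beside 23.8% and 24.1% of all entries, a joint share near the 47.9% of all entries that passed. By spike-ins 0 of 9 were higher and 6 were lower, beside 60.4% of entries lower. Beside MIR125A, miR-99b-5p fell from 1827 and 1278 CPM in WT to 470 and 596 CPM, a log2 fold change of -1.55 ± 0.222 (SE; edgeR adjusted p = 1.44e-04). miR-99b-3p (-1.86, adjusted p = 0.0143) and let-7e-5p (-1.60, adjusted p = 2.76e-04) fell as well, and let-7e-3p had -1.36 without passing (adjusted p = 0.167). Beside MIR125B1, miR-100-5p, the abundant strand of that cluster, rose from 13191 and 11698 CPM to 30798 and 29336 CPM (1.27 ± 0.133, edgeR adjusted p = 1.28e-05). Its spike-in value was -0.02 (adjusted p = 0.921), so the rise holds relative to other miRNAs and not to the spike-ins. let-7a-5p, which 3 loci encode, fell by 0.44, and miR-100-3p (0.83), let-7a-2-3p (0.81) and let-7c-5p (-0.64) did not pass.

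**Figure D3:**
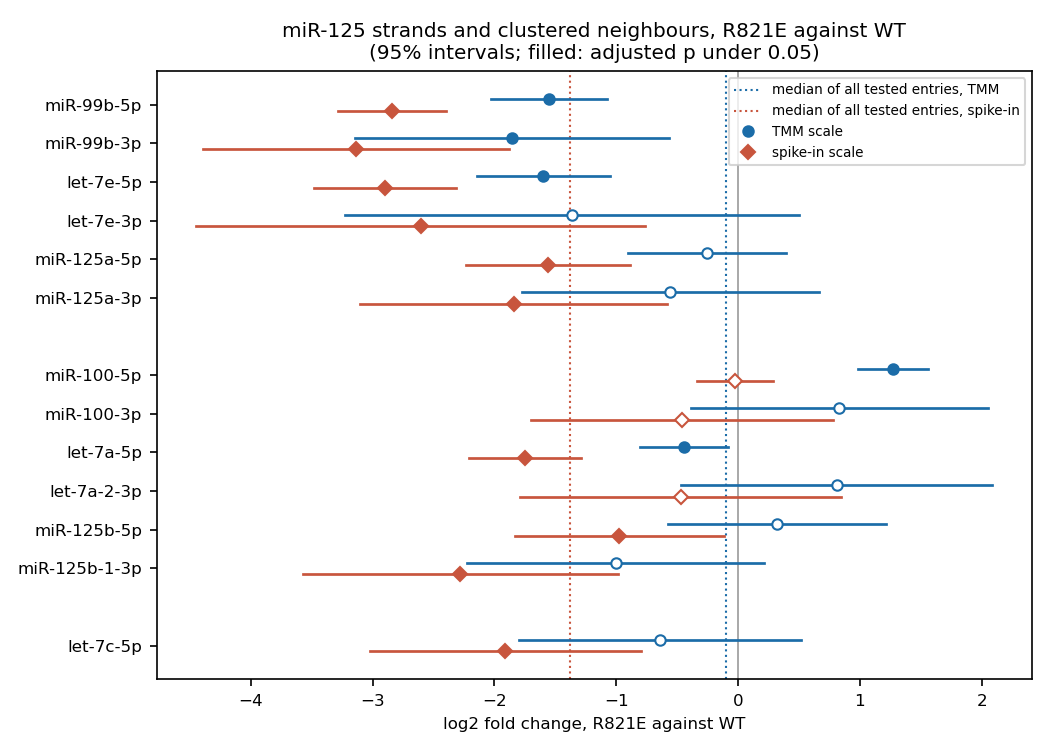
log2 fold change of R821E against WT for the miR-125 strands and the tested strands of their clusters (top block chromosome 19, middle block chromosome 11, bottom chromosome 21), with 95% intervals on both scales and dotted lines at the medians of 374 entries. miR-99b and let-7e-5p lie to the left of both miR-125a strands, and miR-100-5p (1.27) lies to the right of both miR-125b strands.

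Ratios within a library tested this contrast directly, and 2 of the 3 neighbour ratios shifted in R821E beside 53.4% of all 73 ratios. The log2 ratio of let-7e-5p to miR-125a-5p was 0.14 and 0.00 in WT and -1.78 and -0.77 in R821E, a shift of -1.35 ± 0.395 (SE; limma adjusted p = 0.0155). The ratio of miR-99b-5p to miR-125a-5p went from 1.32 and 0.21 to -0.85 and -0.19, a shift of -1.28 ± 0.412 (adjusted p = 0.0225). Both calls were lost without either of 2 libraries: without R821E replicate 1 the shifts were -0.85 and -0.96 (adjusted p = 0.118 and 0.142), and without WT replicate 1 they were -1.28 and -0.73 (adjusted p = 0.0601 and 0.190). The ratio of miR-100-5p to miR-125b-5p had 3.53 and 3.78 in WT and 4.72 and 4.47 in R821E, with 0.94 ± 0.423 (limma adjusted p = 0.0742), and passed when only those 4 libraries were fitted (adjusted p = 0.00725).

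Neighbours were also called in E5 and R821A. In E5, beside 5.48% of ratios that shifted, let-7e-5p fell against miR-125a-5p to log2 ratios of -1.42 and -1.63 (shift -1.59 ± 0.395, limma adjusted p = 0.0332), and the call was lost without any 1 of the 4 libraries (adjusted p = 0.0915 to 0.152), with the replicate block (0.0678) and with only the 4 libraries (0.156). In CPM, let-7e-5p (-1.24) and miR-99b-5p (-0.996) fell and miR-100-5p rose (0.51) in E5, 3 of 9 neighbours called beside 9.09% of entries, while miR-100-5p had -0.07 by spike-ins. In R821A 2 of 9 neighbours fell beside 2.94% of entries, let-7e-5p (-1.34) and let-7a-5p (-0.74), and the ratio of let-7e-5p to miR-125a-5p had a shift of -1.39 ± 0.395 without passing (limma adjusted p = 0.0894; 0% of ratios passed). No neighbour passed on the TMM scale in A5 or ΔPAZ helix (edgeR), where let-7e-5p had -0.57 and -0.59. Unadjusted, let-7e-5p and miR-100-5p were under 0.05 in both, and miR-99b-5p in A5. By spike-ins, let-7e-5p and miR-99b-5p were lower in both and let-7a-5p in A5, which makes 3 of 9 in A5 and 2 of 9 in ΔPAZ helix beside 14.7% and 13.1% of entries. Spike-ins gave 4 of 9 lower in E5 and 2 of 9 in R821A, beside 27.3% and 4.28%. Between R821E and R821A, miR-99b-5p (-1.35, edgeR adjusted p = 7.03e-04) and miR-99b-3p (-1.70, adjusted p = 0.0288) were lower and miR-100-5p was higher (0.82, adjusted p = 6.97e-04), beside 19.5% of entries lower and 21.9% higher. That made 2 of 9 neighbours lower and 1 of 9 higher. By spike-ins miR-100-5p had -0.14 in this comparison, and 4 of 9 neighbours were lower beside 48.9% of entries. The ratio of miR-99b-5p to miR-125a-5p had -1.04 ± 0.412 beside 37% of ratios that shifted (limma adjusted p = 0.0698). Between R821E and E5, miR-100-5p was higher on the TMM scale (0.76, edgeR adjusted p = 0.00219), 1 of 9 neighbours beside 16.3% of entries. On that scale 0 of 9 were lower beside 13.9%. By spike-ins miR-100-5p had 0.05 there, and 5 of 9 neighbours were lower beside 36.4% of entries. At the chromosome 21 locus, miR-99a-5p had 0 counts in both R821E libraries and 9 in WT, and it was too rare to test (0 counts allow up to 3 per library).

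**Figure D4:**
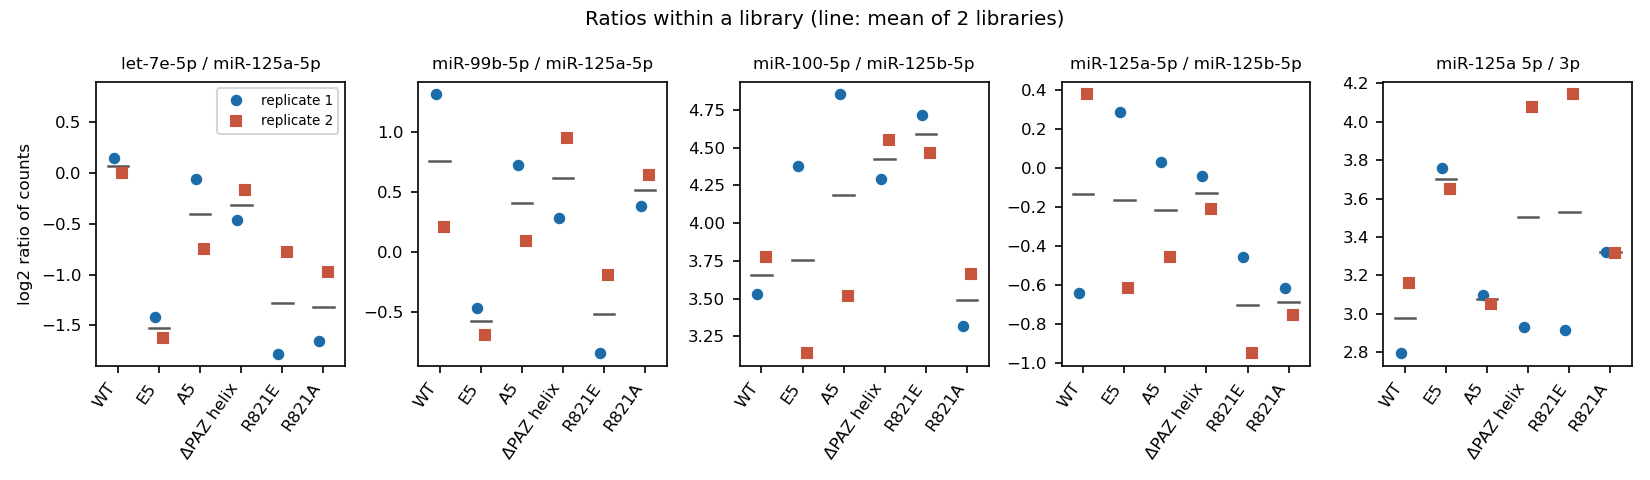
log2 ratio of counts within each library for 3 neighbour pairs, the 2 miR-125 paralogues and the 2 arms of miR-125a, with lines at the group means. let-7e-5p is level with miR-125a-5p in WT (0.14 and 0.00) and lies well under it in E5, R821E and R821A. In A5 this ratio is -0.06 and -0.75 and in ΔPAZ helix -0.46 and -0.17, so A5 replicate 2 is close to R821E replicate 2 (-0.77). The paralogue ratio in WT (-0.64 and 0.38) overlaps that of every mutant.

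Over the 12 libraries the strands did not move as one. Pearson's r of log2 CPM was 0.67 between the arms of miR-125a, 0.50 between the 5p paralogues and 0.08 between miR-125b-5p and miR-125b-1-3p. Where the mean level reached 100 CPM, the entries nearest in pattern were miR-30e-5p (0.68), miR-28-3p (0.63) and miR-550a-5p (0.61) for miR-125a-5p, miR-339-5p (0.83), miR-28-3p (0.68) and miR-196a-5p (0.62) for miR-125b-5p, miR-629-5p (0.80) and miR-339-3p (0.72), followed by miR-125a-5p, for miR-125a-3p, and miR-23b-3p (0.77), miR-1307-3p (0.73) and miR-27b-3p (0.69) for miR-125b-1-3p. The nearest entries are the highest of 249 or 250 searched for each strand, so selection alone raises their r. All these values describe 12 libraries that share depth and composition, and the strands with few counts carry counting noise into them.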

How the data were processed

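The authors deposited raw counts per miRNA or spike-in entry for each library, not normalised. Tools named in the submitters' processing notes are bedtools, BWA and cutadapt, and genome builds mm10 and hg38. Their versions and roles, and how reads that match several miRNAs were treated, are not stated in the sources used here. RNA was extracted with TRIzol and sequenced on a NovaSeq platform, per the labels' protocols. Library sizes and tests left out the 30 spike-in entries of 1376. Counts were tested with edgeR 4.0.16 in R 4.3.3 (robust quasi-likelihood test, TMM factors, filterByExpr by group) in 1 fit of 12 libraries leaving 6 residual degrees of freedom. Benjamini-Hochberg adjustment ran over all 374 entries at 0.05. The filter kept 99.6% of counts. On the spike-in scale, the sum of spike-in counts replaced the library size. Standard errors come from the fitted dispersions. Ratios were tested with limma 3.58.1 (trend, robust) on log2 of counts plus 0.5. They covered 69 hairpins whose arms both averaged 20 counts or more, and 4 ratios of a neighbour or of miR-125a-5p to a miR-125 5p strand. With 2 libraries a group, an exact permutation test cannot go below p = 0.333 and was not used. The scripts were tested on simulated data. Members, neighbours and tests were chosen with earlier results of these data known. The named entries are the members, the listed neighbours and the 3 entries nearest each member by Pearson's r. Alternatives were DESeq2 1.42.0, other scalings, no filter, only the 4 libraries compared, a replicate block and leaving out each library; those of the spike-in scale and of the neighbour ratios were added after seeing the data.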

Additional observations from a re-analysis of the deposited data

How the results depend on the processing

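Of 837 alternative values, 717 kept their direction and their side of the threshold (counts of strands: stayed within 1.5 times), 23 lost a call, 39 gained one and 58 changed sign. The cause was not tested. The number of strands called in R821E vs WT went from 0 to 4 with spike-ins and 2 with total counts, in R821E vs R821A from 0 to 3 with spike-ins, 2 with total counts and 1 each with upper quartile factors or only the 4 libraries compared, and in R821E vs E5 from 0 to 1 each with spike-ins, total counts, no filter or only the 4 libraries. On the spike-in scale, R821E vs E5 went from 1 strand to 2 with no filter and with only the 4 libraries. With spike-ins, miR-125a-5p turned to -0.26 in E5 and -0.29 in R821A, and miR-125b-5p to -0.32 in A5, -0.12 in E5 and -0.97 in R821E. Total counts turned miR-125b-5p in R821E to -0.23, and upper quartile factors turned miR-125a-5p in A5 to 0.025.

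Replicate numbers gave no consistent pairing of the libraries. Over 15 pairs of groups the deviations of same-numbered libraries correlated at -0.46 to 0.32, with 1 pair above 0.1. A batch shared by libraries of different replicate numbers was not tested. The replicate block ended 2 calls, the ratio of let-7e-5p to miR-125a-5p in E5 (-1.59, limma adjusted p = 0.0678; with only the 4 libraries also -1.59, adjusted p = 0.156) and miR-125b-5p on the spike-in scale in R821E (-0.99, edgeR adjusted p = 0.0546).

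When 1 library was left out, the lone partner was assumed to vary like the other groups. The strands called then numbered 0 to 1 in R821E vs R821A by TMM, and by spike-ins 2 to 3 in R821E vs WT and 0 to 2 in R821E vs E5. Log2 fold changes that crossed 0 ran, for miR-125a-3p, from -0.59 to 0.26 in A5, -0.63 to 0.074 in R821A, -1.66 to 0.039 in R821E, -1.59 to 0.11 in ΔPAZ helix, -0.60 to 0.24 in E5 vs A5, -1.32 to 0.39 in R821E vs E5 and -1.44 to 0.26 in R821E vs R821A. For miR-125a-5p they ran from -0.48 to 0.31 in A5, -0.30 to 0.41 in R821A, -0.47 to 0.074 in R821E, -0.46 to 0.15 in ΔPAZ helix and -0.57 to 0.033 in R821E vs R821A. For miR-125b-1-3p they ran from -0.82 to 0.15 in A5, -0.012 to 0.72 in R821A, -0.45 to 0.18 in ΔPAZ helix and -0.68 to 0.38 in E5 vs A5. For miR-125b-5p they ran from -0.63 to 0.64 in A5, -0.063 to 0.89 in E5, -0.38 to 0.029 in ΔPAZ helix, -0.20 to 1.11 in E5 vs A5 and -0.51 to 0.37 in R821E vs E5.

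Among log2 ratios, let-7e-5p to miR-125a-5p ran from -1.70 to -1.49 in E5, -1.86 to -0.85 in R821E and -0.47 to 0.54 in R821E vs R821A. miR-99b-5p to miR-125a-5p ran from -1.84 to -0.73 in R821E and -0.80 to 0.31 in R821A, and miR-100-5p to miR-125b-5p from -0.52 to 0.72 in E5 and -0.34 to 0.011 in R821A. The paralogue ratio ran from -0.59 to 0.43 in A5, -0.54 to 0.48 in E5, -0.50 to 0.51 in ΔPAZ helix, -0.40 to 0.50 in E5 vs A5 and -0.26 to 0.23 in R821E vs R821A. The arm ratio of miR-125a ran from -0.086 to 0.28 in A5, -0.062 to 1.17 in R821E, -0.047 to 1.10 in ΔPAZ helix, -0.79 to 0.44 in R821E vs E5 and -0.40 to 0.82 in R821E vs R821A. Depth limits the 3p strands most, with 4 to 35 counts a library, and 2 libraries a group limit all values.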
